A study of Rattus norvegicus with 16 samples.

Results

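Genes typical of white blood cells were examined in the hearts of newborn rats of 2 strains. The list held 36 genes, and 35 of them had a probe set annotated to that gene alone, out of 14324 genes named on the array. The remaining gene, Cd79a, a B cell receptor chain, had no such probe set and was not analysed here. Each gene was read from its brightest probe set, chosen by the mean over all samples and not by any difference between strains, and every measured member had a single probe set. Members were sorted by cell class, namely 7 pan-leukocyte genes, 10 genes of macrophages and monocytes, 7 genes of myeloid signalling and effector function, 2 neutrophil, 4 T cell, 2 measured B cell, 1 cytotoxic cell and 2 mast cell genes.

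Hearts came from rats aged 2 days. The Hypertrophic Heart Rat (HHR) is the strain under study, and its hearts carry the label hypertrophic; the Normal Heart Rat (NHR) served as control, with a normal heart size on the labels. Each strain gave 4 females and 4 males (4 groups in all), hybridised 1 sample to an array without pooling, and no treatment or transgene is named. The design text describes ventricles separated from the atria, whereas a growth protocol speaks of the whole heart, and no step to remove blood is described, so leukocytes of the blood and of the tissue cannot be told apart. Levels below are log2 expression values, on which a difference of 1 is a doubling, and a difference between strains is always HHR minus NHR.

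Leukocytes make up a small part of the heart. Most are resident macrophages, which enter the heart before birth, are maintained by signals through the receptor Csf1r, clear dead cells and debris, and are marked by the scavenger receptors Cd163 and Mrc1 (CD206). They make the 3 chains of C1q, the recognition part of the classical complement pathway. Neutrophils, mast cells, T cells, B cells and natural killer cells are scarcer in a healthy newborn heart, and each class is recognised by its own receptors or granule proteins.

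The arrays had medians between 7.19 and 7.28, and the lowest correlation of any pair across probe sets was 0.990. The heart muscle markers were bright, with means over all arrays from 11.78 to 13.83 for the 8 listed. Along the leading component of variation within groups, NHR female 3, NHR female 4 and NHR male 4 scored 14.4, 15.1 and 22.6. NHR females 1 and 2 and NHR males 1 and 2 lay at the opposite end, between -16.9 and -11.1, and NHR male 3 was at 1.74. The HHR arrays scored between -3.72 and 7.48. NHR thus spread to both ends, and the 3 arrays at the high end are called the NHR arrays apart. The strain test gave a result past the 0.05 threshold for 20.7% of all 27342 probe sets.

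Against that background, 5 of the 35 leukocyte genes passed the strain test, which is 14.3%. Lcp1, Ncf1, Coro1a and Ptprc fell in HHR, where 11.0% of all probe sets fell, C1qb rose, where 9.64% of all rose, and 30 did not pass. The median difference over the 35 genes was -0.04, beside -0.03 over all probe sets. In 4 of the 35 genes the strains did not overlap, each with all 8 HHR arrays below every NHR array, a pattern met in 2.20% of all probe sets (the reverse in 1.95%, and either in 4.15%). In whole tissue, fewer cells of a type and less RNA per cell cannot be told apart.

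**Figure D1:**
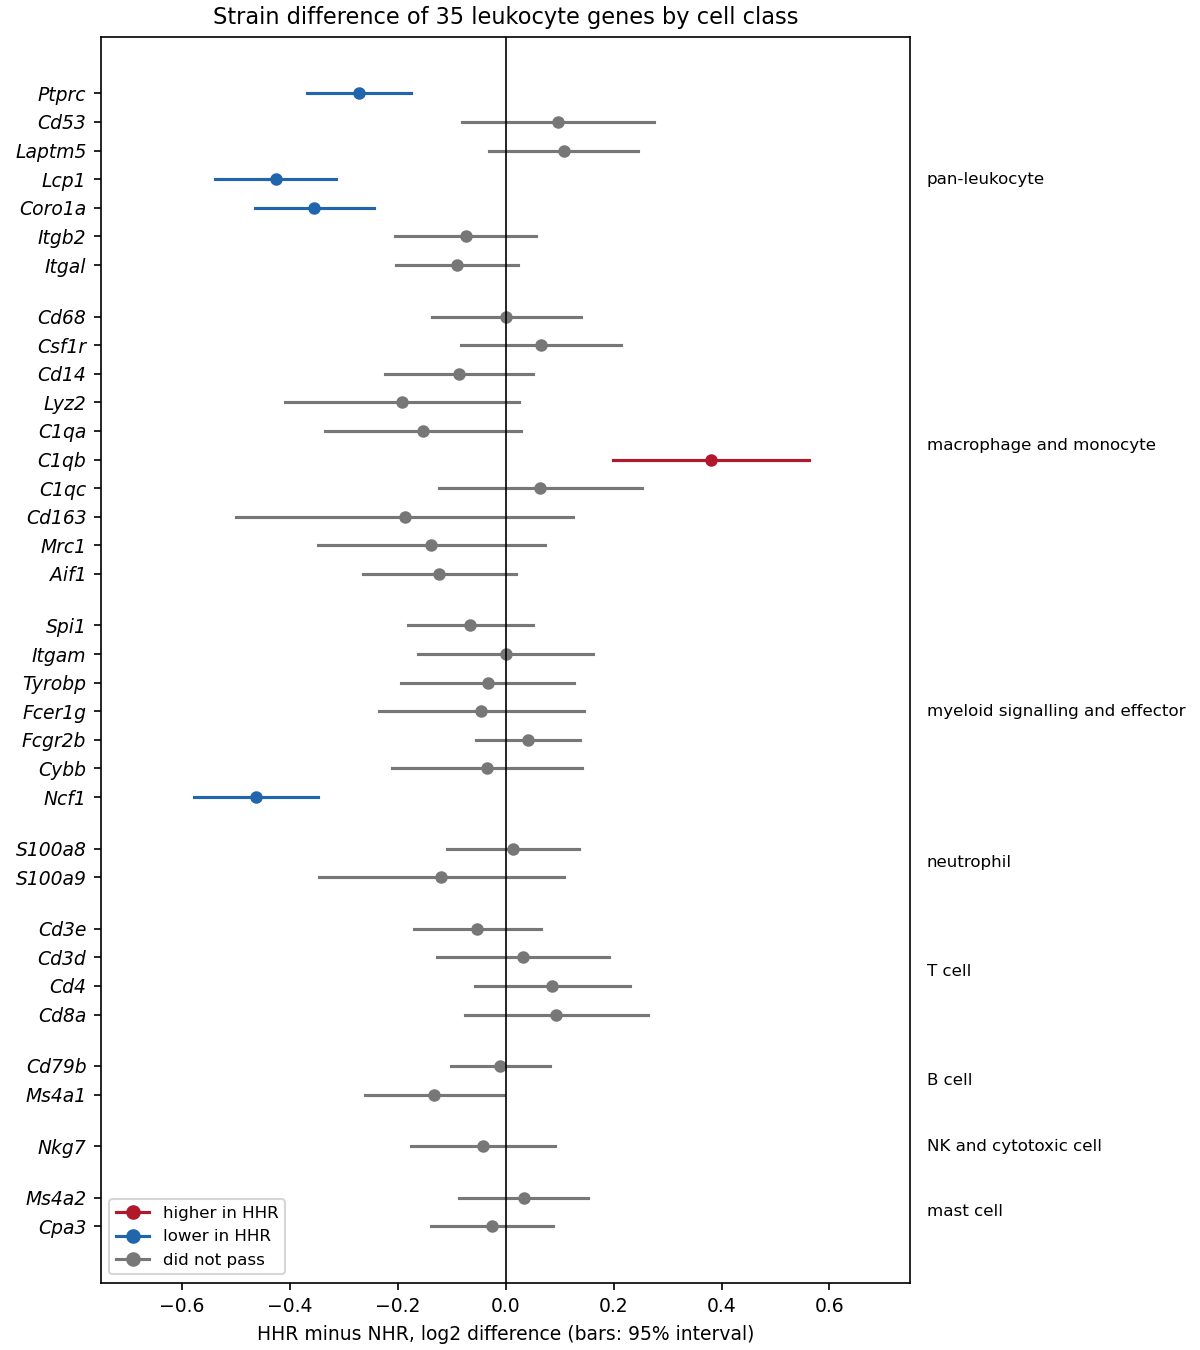
HHR minus NHR difference in log2 expression of each of the 35 genes, grouped by cell class; points are the fitted differences and bars their 95% intervals (8 arrays per strain). Lcp1, Ncf1, Coro1a and Ptprc lie to the left of 0 and C1qb to the right, and the other 30 genes, drawn in grey, did not pass the test after adjustment.

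Spi1, 1 of the 35 genes, encodes PU.1, the transcription factor that specifies myeloid and B cells, and the stretches upstream of the members' start sites were searched for the PU box, the purine-rich core GAGGAA bound by PU.1 and by other factors of the ETS family. The 250 bases before the start were available for 22 of the 36 genes in RefSeq (GRCr8), and both strands were read. The core was present in 15 of the 22 (68.2%), against 23.3% of the 33469 stretches of the same length in the table. Of the called genes, 4 had a sequence: Ptprc and C1qb held the core, and Coro1a and Ncf1 did not. C1qa, a neighbour of C1qb that did not pass, also lacked it. So genes with and without the core were found on either side of the test. These 5 stretches are shown to let the called genes be set beside C1qa, 5′ to 3′ along each gene's own strand and ending at its start, with the core in capitals on either strand (TTCCTC is its reverse complement).
Ptprc, chr13:52259747-52259996, minus strand: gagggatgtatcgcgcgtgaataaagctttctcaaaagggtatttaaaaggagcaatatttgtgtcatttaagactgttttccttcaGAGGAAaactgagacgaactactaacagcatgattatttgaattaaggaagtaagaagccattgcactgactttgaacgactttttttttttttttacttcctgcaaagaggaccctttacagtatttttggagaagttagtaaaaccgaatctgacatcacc
Coro1a, chr1:190731104-190731353, minus strand: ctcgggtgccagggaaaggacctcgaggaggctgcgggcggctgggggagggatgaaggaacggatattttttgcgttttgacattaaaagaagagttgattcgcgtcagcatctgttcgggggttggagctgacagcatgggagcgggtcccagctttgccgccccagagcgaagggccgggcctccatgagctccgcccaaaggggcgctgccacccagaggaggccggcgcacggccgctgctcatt
Ncf1, chr12:28121635-28121884, plus strand: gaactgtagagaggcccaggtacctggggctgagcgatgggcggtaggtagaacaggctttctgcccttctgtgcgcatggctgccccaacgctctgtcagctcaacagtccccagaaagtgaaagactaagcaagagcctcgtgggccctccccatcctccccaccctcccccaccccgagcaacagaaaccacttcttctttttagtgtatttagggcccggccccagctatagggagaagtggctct
C1qb, chr5:154407828-154408077, minus strand: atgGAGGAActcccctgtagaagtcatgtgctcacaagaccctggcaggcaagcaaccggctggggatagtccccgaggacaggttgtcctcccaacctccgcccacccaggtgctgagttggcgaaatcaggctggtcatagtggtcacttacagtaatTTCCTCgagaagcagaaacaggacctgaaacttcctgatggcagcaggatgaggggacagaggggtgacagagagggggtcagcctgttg
C1qa, chr5:154419934-154420183, minus strand: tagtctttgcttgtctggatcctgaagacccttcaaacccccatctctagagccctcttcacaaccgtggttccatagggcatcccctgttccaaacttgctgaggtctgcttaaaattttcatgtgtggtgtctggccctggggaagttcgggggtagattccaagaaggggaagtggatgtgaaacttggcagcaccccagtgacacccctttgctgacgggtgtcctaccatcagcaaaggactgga
In C1qb the copies began 247 and 90 bases before the start, and in Ptprc 163 bases before it. A match describes only the letters of the stretch.

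Among the pan-leukocyte genes, 3 of 7 fell and 0 rose. For this and each class below, the shares over all probe sets were 11.0% lower and 9.64% higher. Of 17 further pan-leukocyte genes, read below, 2 rose and 2 fell. Lcp1 encodes L-plastin, which bundles actin in leukocytes. Its level was 8.76, 8.72, 8.64 and 8.58 in the HHR females, 8.68, 8.72, 8.78 and 8.67 in the HHR males, 9.04, 9.05, 8.90 and 8.92 in the NHR females, and 9.42, 9.38, 9.21 and 9.05 in the NHR males. All HHR arrays were below all NHR arrays, and NHR males 1 and 2 were the highest. The mean was 8.70 ± 0.07 (SD, n = 8) in HHR and 9.12 ± 0.20 (n = 8) in NHR, and Lcp1 fell by 25.6% (log2 difference -0.43, SE 0.05, limma adjusted p = 4.6e-05).

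Coro1a encodes coronin 1A, an actin regulator needed for the survival and migration of T cells. Its level was 6.74, 6.75, 6.71 and 6.78 in HHR females and 6.69, 6.83, 6.58 and 6.87 in HHR males. In NHR it was 6.97, 6.97, 7.12 and 7.23 in females and 7.25, 7.04, 7.11 and 7.10 in males. Again the strains did not overlap, with HHR male 4 nearest to NHR. Coro1a fell by 21.8% (log2 difference -0.35, SE 0.05, limma adjusted p = 2.2e-04).

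Ptprc encodes CD45, the membrane phosphatase present on all nucleated blood cells, and is the gene by which leukocytes are usually sorted. The HHR females gave 6.63, 6.52, 6.58 and 6.64 and the HHR males 6.48, 6.72, 6.69 and 6.81. The NHR females gave 6.92, 6.87, 6.94 and 6.83 and the NHR males 6.89, 6.91, 6.94 and 6.93. The NHR arrays were close together, the HHR males were spread, and the strains did not overlap, with HHR male 4 nearest to NHR. Ptprc fell by 17.2% (log2 difference -0.27, SE 0.05, limma adjusted p = 6.0e-04).

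The other 4 pan-leukocyte genes did not pass. Cd53, a tetraspanin of leukocytes, differed by 0.10 (SE 0.08, 95% interval -0.08 to 0.27), and Laptm5, a lysosomal membrane protein of blood cells, by 0.11 (SE 0.07). Both thus had differences of the opposite sign to those of Ptprc, Coro1a and Lcp1. Itgb2, the beta chain shared by the leukocyte integrins, differed by -0.07, with 5 HHR arrays under the whole NHR range and HHR male 4, at 7.12, above all NHR arrays. Itgal, the alpha chain of the integrin LFA-1, differed by -0.09 (SE 0.05, limma adjusted p = 0.26).

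**Figure D2:**
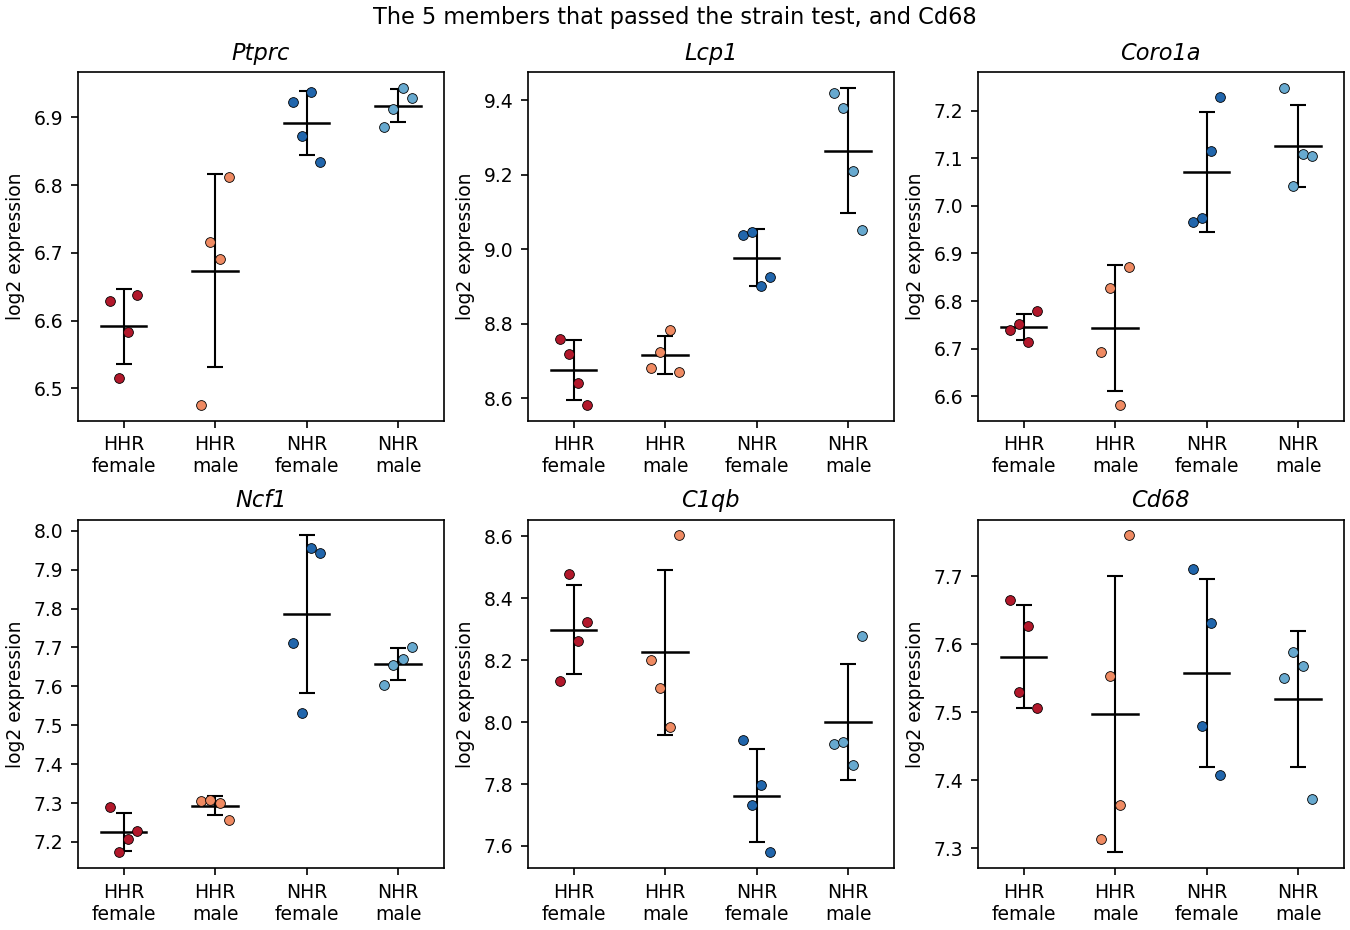
Log2 expression of Ptprc, Lcp1, Coro1a, Ncf1 and C1qb, the 5 genes that passed the strain test, and of Cd68; points are single arrays (4 per group), horizontal lines are group means and bars are SD. In the first 4 genes all 8 HHR arrays lie below every NHR array, in C1qb the strains overlap, and in Cd68 the group means are close together.

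Among the 10 genes of macrophages and monocytes, C1qb rose, 0 fell and 9 did not pass. Cd68, a lysosomal glycoprotein used to count macrophages, was 7.66, 7.53, 7.63 and 7.51 in HHR females, 7.31, 7.55, 7.36 and 7.76 in HHR males, 7.71, 7.48, 7.63 and 7.41 in NHR females, and 7.55, 7.59, 7.57 and 7.37 in NHR males. The strains overlapped throughout. The means were 7.54 ± 0.15 (SD, n = 8) in HHR and 7.54 ± 0.11 (n = 8) in NHR, and the difference was 0.00 (SE 0.07), with a 95% interval from -0.14 to 0.14 on the log2 scale.

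Csf1r, the receptor for the growth factors on which macrophages depend, differed by 0.07 (SE 0.07, 95% interval -0.08 to 0.21). Cd14, the co-receptor for bacterial lipopolysaccharide, differed by -0.09 (SE 0.07), and Aif1 (IBA1), a calcium-binding protein of macrophages, by -0.12 (SE 0.07). None of these 3 genes passed, and their strain ranges overlapped. The scavenger receptors gave -0.19 (SE 0.15) for Cd163 and -0.14 (SE 0.10) for Mrc1, with wide intervals: that of Cd163 ran from -0.50 to 0.12.

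Lyz2, the lysozyme of macrophages and neutrophils, differed by -0.19 (SE 0.10, limma adjusted p = 0.207). Its HHR arrays ran from 8.09 to 8.37 apart from HHR male 4, which was at 8.81. Without that array Lyz2 passed the test, at -0.28 (adjusted p = 0.0232); over its 26 alternatives the adjusted p ran from that value to 0.749.

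The C1q genes lie next to one another, in the order C1qb, C1qc and C1qa, and encode the B, C and A chains of 1 protein. C1qb was 8.13, 8.48, 8.26 and 8.32 in HHR females and 8.20, 8.11, 7.99 and 8.60 in HHR males. In NHR it was 7.94, 7.73, 7.80 and 7.58 in females and 7.93, 7.94, 7.86 and 8.28 in males. All HHR females were above all NHR females, whereas NHR male 4 lay above 5 HHR arrays, which left 3 of the 8 beyond the NHR range. C1qb rose by 30.2% (log2 difference 0.38, SE 0.09, limma adjusted p = 0.00484).

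C1qc and C1qa did not pass. The upstream stretch of C1qa, shown above, lacks the core found in that of C1qb, but Cd68 and Csf1r, which also did not pass, held it. No stretch was available for C1qc, and a link of the core to the strain differences was not tested. C1qc differed by 0.06 (SE 0.09, 95% interval -0.12 to 0.25) and C1qa by -0.15 (SE 0.09, 95% interval -0.33 to 0.03). Since probe sets differ in brightness, the 3 C1q genes were compared as log2 ratios within each array. That comparison was chosen after their values had been seen, and only the change of a ratio between strains was read. The ratio of C1qb to C1qa lay between 0.35 and 0.68 in the 8 HHR arrays and between -0.28 and 0.23 in the 8 NHR arrays, without overlap. Its mean was higher by 0.53 in HHR (two-sided exact permutation test over the arrays, p = 1.6e-04, the smallest these permutations can give, and 4.7e-04 adjusted over the 3 pairs). The ratio of C1qb to C1qc was higher by 0.32 (exact permutation p = 0.00435, also after adjustment), and that of C1qc to C1qa by 0.22 (exact permutation p = 4.7e-04, adjusted 7.0e-04), the latter with HHR arrays between -0.30 and 0.00 and NHR arrays between -0.54 and -0.24. For C1qb to C1qc the strains overlapped as well, with HHR arrays between 0.54 and 0.89 and NHR arrays between 0.04 and 0.77. All 3 ratios thus differed between the strains on average, but they are not separate results, since that of C1qb to C1qa follows from the others. The adjustment over the 3 pairs does not allow for the choice of the comparison after the values had been seen.

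**Figure D3:**
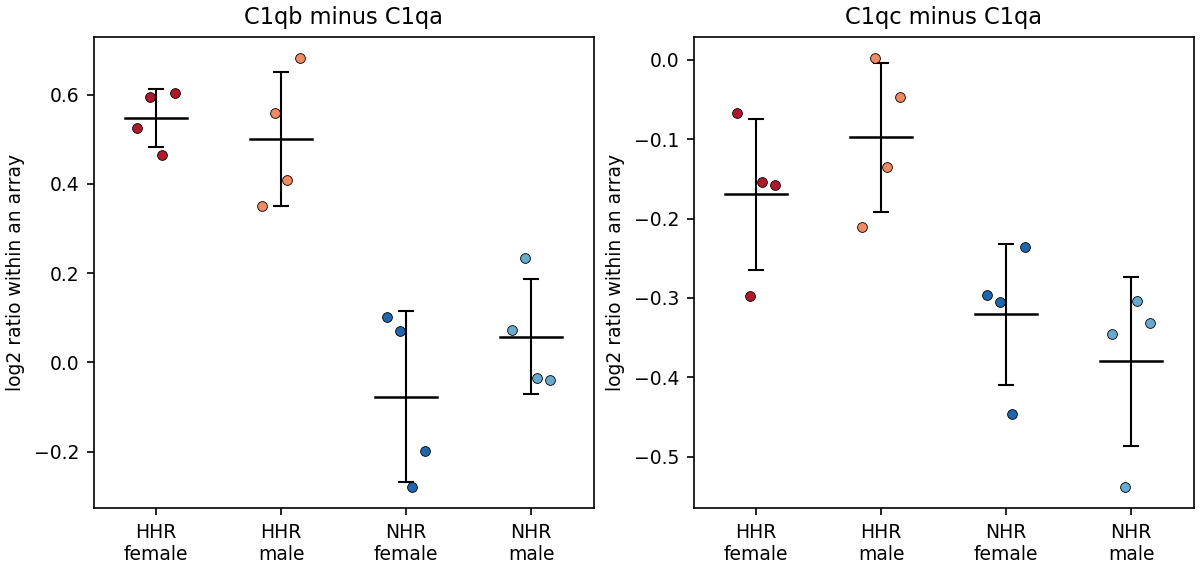
Log2 ratio within each array of C1qb to C1qa (left) and of C1qc to C1qa (right) by group; points are single arrays, lines are group means and bars are SD (4 arrays per group). For C1qb over C1qa the 8 HHR arrays lie between 0.35 and 0.68 and the 8 NHR arrays between -0.28 and 0.23.

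C1q acts together with the proteases C1r and C1s, and other complement genes were read with them. Of 10 listed, 5 were measured, of which 1 fell and 0 rose. C3, the central component on which the complement pathways converge, fell by 0.26 on the log2 scale (SE 0.07, limma adjusted p = 0.0124, 6 of 8 HHR arrays under the NHR range). C1r and C1s differed by -0.06 (SE 0.08) and -0.04 (SE 0.10) and did not pass.

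Of the 7 genes of myeloid signalling and effector function, Ncf1 fell, 0 rose and 6 did not pass. Ncf1 encodes p47phox, the cytosolic organiser of the phagocyte NADPH oxidase. It was 7.29, 7.17, 7.21 and 7.23 in HHR females, 7.31, 7.31, 7.30 and 7.26 in HHR males, 7.71, 7.53, 7.95 and 7.94 in NHR females, and 7.60, 7.65, 7.67 and 7.70 in NHR males. The HHR arrays were close together and all lay below the NHR arrays, of which females 3 and 4 were the highest. The means were 7.26 ± 0.05 (SD, n = 8) and 7.72 ± 0.15 (n = 8), and Ncf1 fell by 27.4% (log2 difference -0.46, SE 0.05, limma adjusted p = 2.7e-05). Without the NHR arrays apart, which include those 2 females, its difference was -0.37 (limma adjusted p = 1.0e-04). Cybb, the membrane subunit (gp91phox) of the same oxidase, differed by -0.03 (SE 0.08, 95% interval -0.21 to 0.14), and the difference of Rac2, its GTPase partner in leukocytes, was 0.11 (SE 0.08); neither passed.

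Spi1, the gene of PU.1, whose core motif was marked in the sequences above, was 6.94, 7.02, 6.86 and 6.83 in HHR females, 6.92, 6.72, 6.91 and 7.03 in HHR males, 6.75, 6.97, 6.88 and 6.95 in NHR females, and 7.04, 7.04, 6.92 and 7.20 in NHR males. The strains overlapped, and the difference of -0.07 (SE 0.05, limma adjusted p = 0.436) did not pass. Tyrobp (DAP12), an adaptor that passes on signals from activating receptors, differed by -0.03 (SE 0.08), the inhibitory Fc receptor Fcgr2b by 0.04 (SE 0.05) and Itgam (CD11b), the alpha chain of complement receptor 3, by 0.00 (SE 0.08). Their strain ranges overlapped as well.

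Fcer1g, the gamma chain shared by Fc receptors, was 8.63, 8.68, 8.49 and 8.56 in HHR females and 9.03, 8.95, 8.81 and 8.88 in HHR males. The NHR females gave 8.94, 9.03, 8.45 and 8.61 and the NHR males 8.85, 8.95, 9.10 and 8.46. Within NHR, the arrays apart (female 3, female 4 and male 4) were the lowest. The strain difference was -0.04 (SE 0.09, limma adjusted p = 0.773) with all arrays and -0.22 without those 3, where it passed (adjusted p = 0.0167; 0.0167 to 1.00 over its 26 alternatives).

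The called genes were also placed among their neighbours in the RefSeq gene order, taking the 3 nearest measured genes on each side. Of the 6 neighbours of Ptprc, 0 passed the strain test (limma). For C1qb, whose neighbours include C1qc and C1qa, 1 of 6 passed. It was Ephb2, an ephrin receptor, which rose by 0.42 on the log2 scale (SE 0.06, limma adjusted p = 2.8e-04). Of the neighbours of Ncf1, 2 of 6 passed, of those of Coro1a 3 of 6, and of those of Lcp1 3 of 6, where 20.7% of all probe sets passed. Near Ncf1, Gtf2i fell (-0.16) and Castor2 rose (0.22). Near Coro1a, Slx1b (-0.19) and Ypel3 (-0.32) fell and Sgf29 rose (0.22). Beside Lcp1, Lrch1 and Zc3h13 fell, by 0.13 (limma adjusted p = 0.0218) and 0.30 (adjusted p = 0.00163), as Lcp1 did, and Htr2a, the serotonin 2A receptor, rose by 1.67 (adjusted p = 1.4e-08).

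Of all probe sets, 20.7% passed the strain test by limma. The neutrophil, T cell, B cell, cytotoxic cell and mast cell genes gave 0 calls in 11 measured genes. At the unadjusted 0.05 level Ms4a1 alone among them passed. Of the neutrophil alarmins, S100a8 was 4.12, 3.88, 3.91 and 3.94 in HHR females, 4.06, 3.93, 4.01 and 3.95 in HHR males, 3.94, 3.84, 3.96 and 4.12 in NHR females, and 4.18, 3.95, 3.94 and 3.77 in NHR males. It was at the dim end of the array in all groups, and the strains overlapped (difference 0.01, SE 0.06). Its partner S100a9 differed by -0.12 (SE 0.11, 95% interval -0.35 to 0.11).

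The T cell genes differed by -0.05 to 0.09. Cd3e, a chain of the T cell receptor complex, was 5.07, 5.16, 5.40 and 5.17 in HHR females, 5.11, 5.02, 5.31 and 5.07 in HHR males, 5.29, 5.17, 5.17 and 5.20 in NHR females, and 5.14, 5.22, 5.18 and 5.37 in NHR males. The HHR arrays spanned the whole NHR range (difference -0.05, SE 0.06). Cd3d, another chain of that complex, gave 0.03 (SE 0.08), and Cd8a, the co-receptor of cytotoxic T cells, 0.09 (SE 0.08). Cd4, the co-receptor of helper T cells and in rats also a protein of macrophages, averaged 8.16 ± 0.16 (SD, n = 8) in HHR and 8.07 ± 0.15 (n = 8) in NHR, a difference of 0.09 (SE 0.07) that did not pass.

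Of the B cell genes, Cd79b, a signalling chain of the B cell receptor, differed by -0.01 (SE 0.04). Ms4a1 (CD20) differed by -0.13 (SE 0.06, limma adjusted p = 0.138) and passed only without NHR male 2 among the 25 alternatives run for it (-0.17, adjusted p = 0.0381; highest 0.349). Nkg7, a granule protein of cytotoxic cells, was 6.79, 6.91, 6.80 and 6.79 in HHR females, 6.98, 6.76, 6.95 and 7.09 in HHR males, 7.01, 6.95, 6.57 and 6.86 in NHR females, and 7.01, 7.14, 6.95 and 6.92 in NHR males. Neither strain stood apart in it (difference -0.04, SE 0.06). Ms4a2, the beta chain of the mast cell IgE receptor, was 4.65, 4.61, 4.51 and 4.87 in HHR females, 4.60, 4.57, 4.68 and 4.68 in HHR males, 4.62, 4.73, 4.53 and 4.63 in NHR females, and 4.56, 4.64, 4.77 and 4.43 in NHR males. Its difference was 0.03 (SE 0.06), and that of the mast cell protease gene Cpa3 was -0.03 (SE 0.05). No background level was recorded, so for S100a8, S100a9, Cd3e, Cd3d, Ms4a1, Ms4a2, Cpa3, Itgam and Fcgr2b, the 9 members under a limit for dim probe sets (6.57 exceeded on at least 4 arrays), a low level cannot be told from no signal, and they had no value under that filter; the other 26 passed it.

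Arrays of the same group differed in their macrophage genes. Taking the median over the 10 macrophage and monocyte genes of each array's deviation from the gene's mean, HHR male 4 stood at 0.27 and NHR male 4 at 0.31, and the other 14 arrays lay between -0.21 and 0.07. HHR male 4 was the highest of the 4 HHR males in 8 of the 10 genes and in 23 of all 35 members, beside 26.5% of all probe sets. NHR male 4 was the highest of its group in 6 of the 10 and the lowest in 3. Cd163 was at 7.51 in HHR male 4 and 7.85 in NHR male 4, while the other HHR males ran from 6.63 to 6.91 and the other NHR males from 6.86 to 7.37. Mrc1 was at 8.67 and 8.99 in those arrays, above all others of their groups. The SE of Cd163, Lyz2 and Mrc1 were the largest of the class. The 5 called genes passed the strain test without either array.

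**Figure D4:**
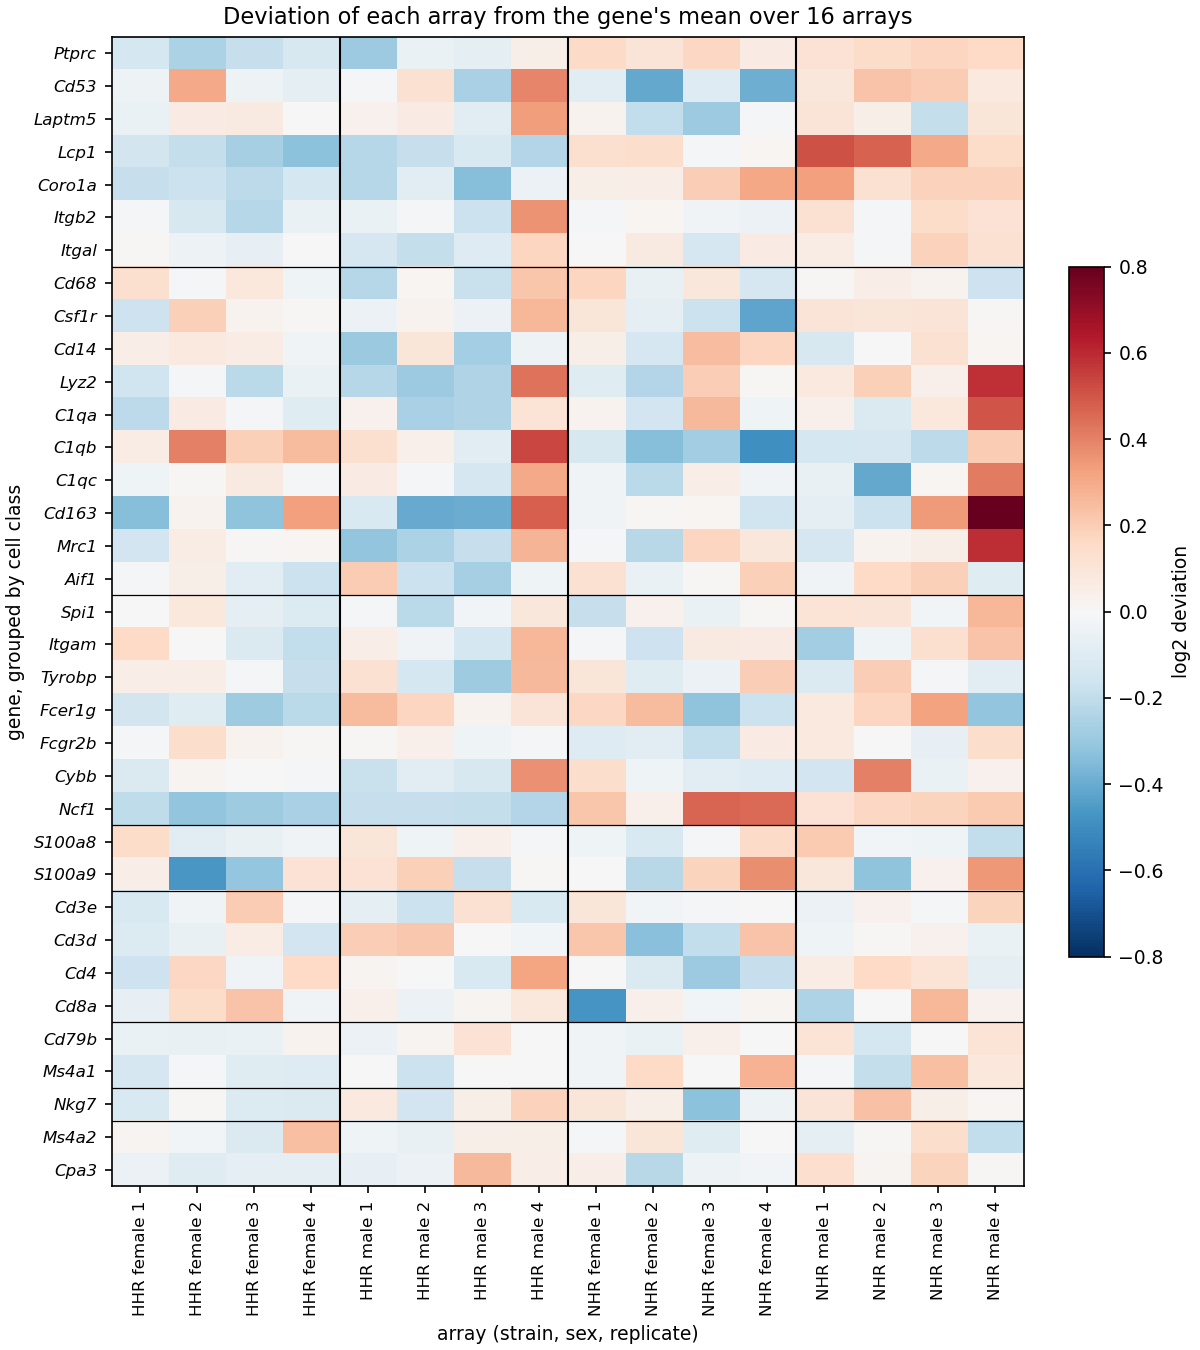
Deviation of each of the 16 arrays (columns, ordered by strain, sex and replicate) from the gene's mean over all arrays, in log2 units, for the 35 genes (rows, ordered by cell class; horizontal lines separate classes). Ptprc, Lcp1, Coro1a and Ncf1 are below their mean in nearly all HHR arrays and above it in nearly all NHR arrays, and HHR male 4 and NHR male 4 are high in Cd163, Lyz2 and Mrc1.

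Read within each sex, 4 of the 35 genes passed in males, all 4 lower and 0 higher, where 4.02% of all probe sets passed (1.98% lower, 2.03% higher). In females 5 passed, 4 lower and 1 higher, where 12.0% passed (6.21% lower, 5.78% higher). Lcp1, Coro1a, Ncf1 and Ptprc passed in each sex, lower in HHR. In males Ptprc stood near the threshold (-0.24, SE 0.06, limma adjusted p = 0.0427) and did not pass in 17 of 26 alternatives. These were 3 other normalizations, trended and robust moderation, the 0.01 threshold, the fit without the NHR arrays apart, and the fits without any 1 HHR female, without HHR male 1, 2 or 3, without NHR female 2, or without NHR male 1, 3 or 4. In females the calls of C1qb and Coro1a were lost once the NHR arrays apart were left out. That fit had fewer NHR females, and its strain test over both sexes called 3997 probe sets, beside 5651 with all arrays. Lcp1 differed by -0.55 (SE 0.08, limma adjusted p = 3.9e-04) in males and -0.30 (SE 0.08, adjusted p = 0.0151) in females, and Ncf1 by -0.36 (SE 0.08, adjusted p = 0.0125) and -0.56 (SE 0.08, adjusted p = 3.3e-04). C1qb differed by 0.54 (SE 0.12, limma adjusted p = 0.00939) in females and by 0.22 (SE 0.12, adjusted p = 0.327) in males. The difference between the sexes was itself tested and was not called for any of them: the interaction gave an adjusted p of 0.969 for Lcp1 and 0.994 for C1qb and Ncf1. By limma 0 of the 35 genes and 0% of all probe sets passed the interaction test, and 2 genes, Cd53 and Lcp1, were under 0.05 without adjustment. Between males and females 0 of the 35 passed, beside 0.0110% of all probe sets, and 5 were under 0.05 without adjustment by limma (Cd53, Lcp1, Fcer1g, Nkg7 and Cpa3, each higher in males).

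A wider list of 109 leukocyte and complement genes, 89 of them measured, gave 6 higher and 8 lower in HHR. That was 15.7% called, beside 20.7% of all probe sets (9.64% higher and 11.0% lower). The median difference was -0.04, beside -0.03 over all probe sets. In 3 of the 89 genes the strains did not overlap, a pattern met in 4.15% of all probe sets. Among pan-leukocyte genes, 2 of 17 rose and 2 fell. Selplg, the ligand by which leukocytes roll on selectins, rose by 0.50 (SE 0.10, limma adjusted p = 0.00237, 8 of 8 HHR arrays above every NHR array), and Arhgdib by 0.40 (SE 0.09, adjusted p = 0.00433, 7 of 8). Ptpn6 (SHP-1), an inhibitory phosphatase, fell by 0.19 (SE 0.06, adjusted p = 0.0213) but missed the threshold under quantile normalization (-0.16, adjusted p = 0.0581) and under cyclic loess (-0.16, adjusted p = 0.0615).

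Among 21 further macrophage and monocyte genes, 2 rose and 2 fell. Lyve1, a hyaluronan receptor of resident macrophages and of lymphatic endothelium, rose by 0.41 (SE 0.07, limma adjusted p = 8.4e-04, 8 of 8 HHR arrays above every NHR array). Ccr2, the chemokine receptor by which monocytes are recruited, fell by 0.34 (SE 0.08, adjusted p = 0.00652, 4 of 8 HHR arrays under the NHR range). Cd74, the invariant chain of MHC class II, fell by 0.32 (SE 0.09, adjusted p = 0.016), with 0 of 8 HHR arrays under the NHR range.

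Of 13 further neutrophil genes, 1 rose and 1 fell. Lcn2, a protein of neutrophil granules that is also made by other cells, rose by 2.34 (SE 0.06, limma adjusted p = 5.2e-14). The granule genes Mpo (-0.06), Elane (-0.11), Ltf (-0.03) and Ngp (0.00) did not pass. Mpo, Elane and Ltf had means over all arrays of 5.99, 6.37 and 5.41 and lay under the limit for dim probe sets. At such levels a low signal cannot be told from none. Csf3r, the receptor for granulocyte colony-stimulating factor, differed by -0.15 (SE 0.04, adjusted p = 0.0277). That call was lost in 11 of 25 alternatives (adjusted p up to 0.123): without HHR female 1 (-0.13, adjusted p = 0.0623), HHR female 3 (-0.14, 0.0548), HHR male 2 (-0.13, 0.0646), NHR female 3 (-0.13, 0.0573), NHR male 1 (-0.14, 0.051) or NHR male 3 (-0.14, 0.0564), without the NHR arrays apart (-0.13, 0.123), with each of 3 other normalizations, and at the stricter threshold.

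Of 13 T cell genes and 8 mast cell genes of the wider list 0 passed by limma, with lowest adjusted p of 0.0514 and 0.181. Their means over all arrays ran from 4.15 to 7.84 and from 4.09 to 8.28, and some lay under the limit for dim probe sets. The T cell gene nearest to the threshold, Il7r, the interleukin 7 receptor, passed in 9 of 26 alternatives. The 26 include the filter for dim probe sets, under which Il7r, with a mean of 4.63 over all arrays, had no value. Of 6 B cell genes, Cd24, which immature B cells share with epithelial and other cells, rose by 0.35 (SE 0.07, limma adjusted p = 0.00294), and Blnk, an adaptor of the B cell receptor, fell by 0.21 (SE 0.05, adjusted p = 0.0121) but missed the threshold when the arrays were quantile normalized (-0.17, adjusted p = 0.0618) or scaled by cyclic loess (-0.17, adjusted p = 0.0681). Of 6 cytotoxic cell genes, Ncr1, an activating receptor of natural killer cells, fell by 0.22 (SE 0.05, adjusted p = 0.00585) and 0 rose. Among the called genes of the wider list, Ccr2, Csf3r, Blnk and Ncr1 did not pass the filter for dim probe sets. Their means over all arrays were 6.24, 6.34, 5.87 and 5.92, levels at which a low signal cannot be told from none.

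Of 42 measured markers of other cells, 9 rose and 12 fell in HHR, or 50% called, beside 20.7% of all probe sets and 14.3% of the 35 leukocyte genes. These shares are for sets of unlike brightness. Means over all arrays ran from 6.15 to 13.83 for the markers and from 3.97 to 8.91 for the leukocyte genes. All probe sets include 11922 without a gene symbol. Of 8 heart muscle genes 5 fell and 0 rose, and their mean level lay between 12.93 and 13.02 in the HHR arrays and between 13.03 and 13.17 in the NHR arrays. Of 6 endothelial genes 4 fell and 0 rose (mean level 10.01 to 10.13 in HHR and 10.13 to 10.35 in NHR), and of 8 fibroblast genes 3 rose and 0 fell (10.70 to 11.00 and 10.54 to 10.81). Blood was mixed: of 7 red cell genes 2 rose and 2 fell (8.12 to 8.47 and 8.07 to 8.56), and of the 3 measured platelet genes Pf4 fell by 0.61 (SE 0.12, limma adjusted p = 0.0023), Ppbp rose by 0.47 (SE 0.12, adjusted p = 0.00994) and Gp9 did not pass (7.17 to 7.42 and 6.82 to 7.81). Their part in the differences of Lcp1, Ncf1, Coro1a, Ptprc and C1qb was not tested.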

How the data were processed

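The deposited values are log2 levels; RMA and limma are named in the submitters' processing notes. In RMA, background correction and quantile normalization come before the probes of each set are combined. Version, annotation and genome build are not given in the sources used here. All 16 columns of 27342 probe sets were used; the number of arrays limits the precision. The platform annotation gave 1 gene symbol for 15097 probe sets, several for 323 and none for 11922. Each member rests on 1 probe set, and sequence differences between the strains under its probes were not tested.

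Differences were tested with limma 3.58.1 (R 4.3.3): a mean per group over all 16 arrays, moderated by eBayes, with p-values adjusted by Benjamini-Hochberg across the whole table and called at 0.05. SE and 95% intervals are the model's. The script was tested on simulated data. Litters were not given, so p-values measure the spread between these samples.

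The members and lists were chosen with earlier results of these data known. Values in every array are given for members past the strain threshold and for the first member of each class, and for Fcer1g, chosen after its values were seen; of the wider lists, up to 3 called genes per class with the smallest adjusted p are named, and other examples were chosen after their values were seen. The wider lists held 109 further leukocyte and complement genes and 50 markers of heart muscle, endothelial, fibroblast, mural, epicardial, red cell and platelet identity. Of the last, 1 of 6 mural genes rose and 0 fell, and 2 of 4 measured epicardial genes rose and 0 fell. Promoter sequences came from RefSeq (GRCr8), with 22 of 36 members matched by symbol. Alternatives are given in the closing section.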

Additional observations from a re-analysis of the deposited data

Results flagged for a closer look

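In 9 of 140 combinations of a gene and a group of 4 arrays, 1 array stood far from the other 3 (Dixon's test at the 95% level, which chance passes in about 1 of 20 groups). Among HHR males, replicate 4 was high for Lyz2 (8.81, the others 8.09 to 8.15) and Cybb (8.47, the others 7.93 to 8.01) and low for Ncf1 (7.26, the others 7.30 to 7.31), and replicate 2 was low for Ms4a1 (5.04, the others 5.21). Among HHR females, replicate 2 was high for Cd53 (7.84, the others 7.47 to 7.50) and Nkg7 (6.91, the others 6.79 to 6.80), and replicate 4 was high for Cd79b (6.90, the others 6.82). In NHR, male 4 was low for Csf1r (8.54, the others 8.63 to 8.64) and female 1 was low for Cd8a (6.13, the others 6.58 to 6.64).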

How the results depend on the processing

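The strain count of 5 genes ranged from 5 to 6 over 26 alternatives, and Lcp1, Ncf1, Coro1a, Ptprc and C1qb passed in each, with adjusted p up to 0.0127. Their number in males was 4, between 3 and 5 when 1 array was left out, and 2 (Lcp1 and Coro1a) at a threshold of 0.01; in females it was 5, also without any 1 array, and 4 at 0.01 (without Lcp1) and without the NHR arrays apart (Fcer1g passed, Coro1a and C1qb did not). The counts for the interaction and for sex stayed at 0 in limma under every alternative. The wider leukocyte list gave 14 calls, between 11 and 20 when 1 array was left out, between 10 and 17 under other settings at 0.05, and 7 at the 0.01 threshold, where 10.6% of all probe sets passed; under quantile normalization and cyclic loess it gave 6 higher and 4 lower in place of 6 and 8. The C1q ratios passed in all 20 alternatives run for them, with an adjusted exact permutation p of up to 0.0451 for C1qb to C1qc. With the replicate number as a block the strain count was 5, and the block changed the call of none of the 35 genes; same-numbered arrays correlated at -0.11 to 0.37 (median 0.09) after group means were removed, so not every pair passed the 0.1 required, and the number was not taken as a pairing. In 9 of 16 arrays, however, the best match in another group had the same number (4 if numbers were unrelated), a hint from the data and not from the design. Leaving out the NHR arrays apart was chosen after seeing the data. Averaging several probe sets of a gene was not run, since each member has 1. Precision is limited by the number of arrays, and no background level was recorded.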
